A study of Mus musculus with 2 samples.

Results

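Genes that make, carry or destroy retinoic acid were measured in the mouse limb at embryonic day 12.5. The 10 genes are Aldh1a1, Aldh1a2, Aldh1a3, Rdh10, Dhrs3, Cyp26a1, Cyp26b1, Cyp26c1, Crabp1 and Crabp2, chosen by name for their place in the pathway, and all were found among the 43346 Ensembl genes of the deposited tables. The samples were 2 pools of limbs from embryos of strain B6NCrl, male and female together, with no treatment or altered allele named. Replicate 1 came from 88 embryos and replicate 2 from 68. The pools were labelled as biological replicates, and 10 ng of RNA longer than 200 nt went into each library. It is not stated whether forelimbs, hindlimbs or both were taken, and there is no second condition, so genes were compared within the limb and the pools with each other.

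Retinoic acid is made from vitamin A. Retinol is oxidised to retinaldehyde, mainly by the dehydrogenase RDH10, and DHRS3 carries out the reverse reduction. The ALDH1A enzymes then oxidise retinaldehyde irreversibly to retinoic acid, CRABP proteins bind it in the cytosol, CYP26 enzymes oxidise it to inactive products, and the remainder acts through nuclear receptors. In the limb, CYP26B1 is known for keeping the distal bud low in retinoic acid, and Aldh1a2 is known from the flank, proximal mesenchyme and, later, the tissue between the digits.

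Aldh1a2 held most of the transcripts for retinaldehyde oxidation and Cyp26b1 most of those for breakdown, Rdh10 and Dhrs3 were both expressed, and both binding protein genes had high levels. Of the 10 genes, 8 reached a level of 1 TPM, a unit of reads per length scaled to the same sum in each library, in both libraries, and Aldh1a1 and Cyp26c1 did not. All 10 are protein-coding, and 59.2% of protein-coding genes and 33.5% of all Ensembl genes reached that level. Summed TPM over the 10 genes was 1006.53 in replicate 1 and 1014.69 in replicate 2. Binding proteins held 79.5% and 80.5% of that sum, retinaldehyde oxidation 10.5% and 9.15%, the enzyme pair acting between retinol and retinaldehyde 6.37% and 6.63%, and breakdown 3.57% and 3.72%. These shares are per length, and Crabp1 and Crabp2 were the shortest of the 10 genes (802 and 929.3 nt in replicate 1). In reads not divided by length the binding share was smaller. In order of mean TPM the genes ran Crabp2, Crabp1, Aldh1a2, Dhrs3, Cyp26b1, Rdh10, Aldh1a3, Cyp26a1, Cyp26c1 and Aldh1a1. Neighbours in that order kept apart in both libraries except Cyp26c1 and Aldh1a1, whose values overlapped. Aldh1a3 and Cyp26a1 lay close, at 4.88 and 5.76 TPM against 4.24 and 4.85, and the lower value of Aldh1a3 differed from the higher value of Cyp26a1 by less than the SD of either.

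**Figure D1:**
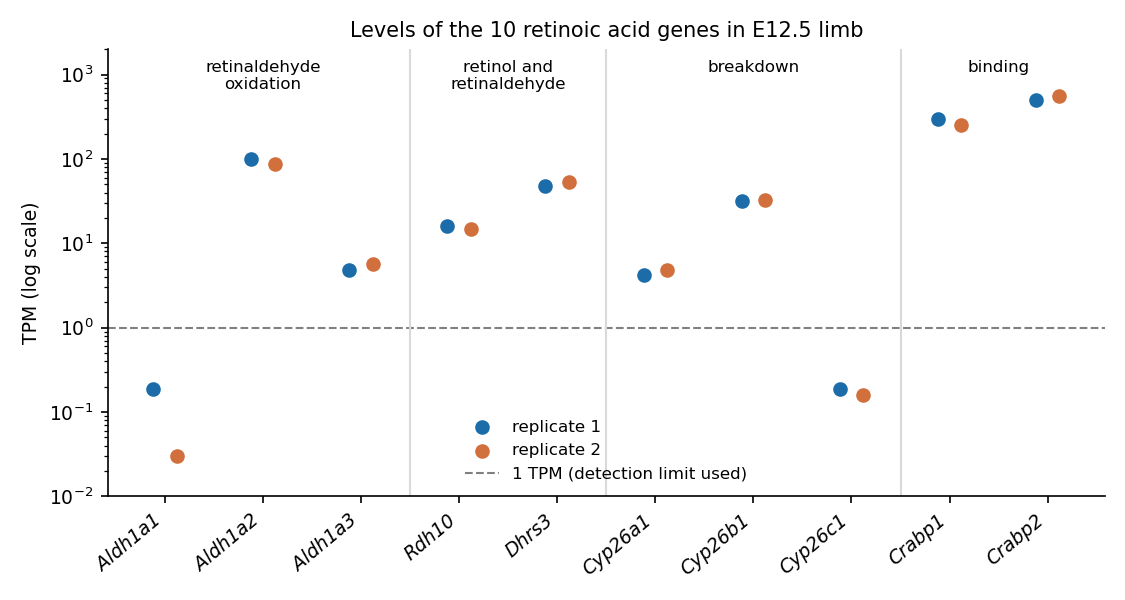
Level of each of the 10 genes in TPM on a log axis, grouped by role, with 1 point per library and a dashed line at 1 TPM. Crabp2 and Crabp1 sit highest, from 254.59 to 562.18 TPM, and Aldh1a1 and Cyp26c1 are the only genes under the line.

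The libraries held 28832252 and 29249348 counts over Ensembl genes. Markers of limb mesenchyme such as Prrx1 (167.69 and 163.2 TPM) and Msx1 (380.2 and 410.69 TPM) were present in both, with all 8 listed markers detected. Summed TPM of 6 cartilage markers was 1052 and 917, of 6 neuron markers 45.6 and 60.4, of 5 Schwann precursor markers 25.4 and 30.3 and of 4 ectoderm markers 302 and 281. Endothelial (153 and 151), macrophage (66.8 and 62.7), muscle (489 and 472) and red cell markers (7193 and 7213) were also present. Summed over 4 liver markers it was 8.10 and 5.37, and over 4 trunk and heart markers 2.95 and 1.66, with the heart gene Nkx2-5 listed at 0. Of 4 motor neuron markers, Slc18a3 was at 0 and Chat had 1 count in all, while Isl1, which the hindlimb also expresses, was at 7.31 and 14.07 TPM. In such bulk tissue, fewer cells of a type and less RNA per cell cannot be told apart.

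Most transcripts for retinaldehyde oxidation came from Aldh1a2 (ENSMUSG00000013584.5, mm10 chromosome 9, 71215789 to 71296243). Aldh1a2 was measured at 101.07 TPM in replicate 1 and 87.03 in replicate 2 (94.0 ± 9.93, SD, n = 2), from 4099 and 3554 counts. It held 95.2% and 93.8% of the TPM of the 3 Aldh1a genes, and its mean was above that of 95.7% of all genes. Aldh1a3, whose enzyme is best known from the eye and nasal region (chromosome 7, 66390890 to 66427517), was at 4.88 and 5.76 TPM, from 253 and 293 counts. Aldh1a2 was 20.7-fold above Aldh1a3 in replicate 1 (95% exact counting interval 18.2 to 23.6) and 15.1-fold in replicate 2 (13.4 to 17.1). The mean log2 ratio of 4.12 was larger than its SD between libraries (0.32). Aldh1a1, an enzyme abundant in the dorsal retina and in adult liver (chromosome 19, 20492715 to 20643465), was close to absent. It had 7 counts in replicate 1 (95% exact Poisson interval 2.81 to 14.4) and 1 count in replicate 2 (0.0253 to 5.57), or 0.19 and 0.03 TPM. Aldh1a2 was 532-fold above it in replicate 1 (256 to 1315) and 2901-fold in replicate 2 (575 to 126730), a range set by those few counts.

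The genes acting between retinol and retinaldehyde were both expressed, and the one for the reducing enzyme had more transcripts per length with all its transcripts counted. Rdh10 (ENSMUSG00000025921.7, chromosome 1, 16105774 to 16133734), needed for most retinaldehyde formation in the embryo, was at 15.86 and 14.66 TPM from 994 and 937 counts. Dhrs3 (ENSMUSG00000066026.10, chromosome 4, 144892827 to 144928209), itself known to be induced by retinoic acid, was at 48.23 and 52.65 TPM from 1429 and 1562 counts. Dhrs3 was 3.04-fold above Rdh10 in replicate 1 (2.80 to 3.30) and 3.59-fold in replicate 2 (3.31 to 3.90), a log2 ratio of 1.72 ± 0.17 (SD, n = 2). Much of that ratio came from dividing by length, since Rdh10 was about 3445.5 nt long and Dhrs3 about 1680.81 nt. In reads not divided by length, Dhrs3 was 1.44-fold and 1.67-fold above Rdh10. Both comparisons take in all transcripts of each gene. Transcripts annotated as protein-coding held 64.6% and 65.4% of the TPM of Dhrs3, and 91.3% and 93.9% of that of Rdh10. Aldh1a2 was in turn 6.37-fold and 5.94-fold above Rdh10 per length. Transcript levels of different enzymes do not give their activities, which were not measured.

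Most transcripts for breakdown came from Cyp26b1 (ENSMUSG00000063415.8, chromosome 6, 84571414 to 84593908). It was at 31.55 and 32.78 TPM (32.2 ± 0.870, SD, n = 2) from 2720 and 2845 counts, with the smallest relative spread of the 10 genes (SD 2.70% of the mean). It held 87.7% and 86.7% of the TPM of the 3 Cyp26 genes. Cyp26a1, which encodes the family member that retinoic acid induces most directly, was at 4.24 and 4.85 TPM from 133 and 153 counts. Cyp26b1 was 7.44-fold above Cyp26a1 in replicate 1 (6.25 to 8.92) and 6.76-fold in replicate 2 (5.75 to 8.01). Because the Cyp26b1 transcript is long (4700 nt against 1773 nt), the same comparison in reads gave 20.5-fold and 18.6-fold. Cyp26c1 had 6 and 5 counts, or 0.19 and 0.16 TPM. Cyp26b1 was 166-fold above it in replicate 1 (74.5 to 443) and 205-fold in replicate 2 (87.2 to 628). Cyp26c1 (chromosome 19, 37685581 to 37693398) and Cyp26a1 (37697798 to 37701536) are neighbours on the same strand, 4399 bp apart, and these 2 linked genes were the lower ones of the family.

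Synthesis transcripts exceeded breakdown transcripts. Summed Aldh1a genes reached 106.14 and 92.82 TPM and summed Cyp26 genes 35.98 and 37.79 TPM, a ratio of 2.95 in replicate 1 and 2.46 in replicate 2. The log2 ratio was 1.43 ± 0.19 (SD, n = 2). In reads not divided by length the ratio was 1.52 and 1.28, in the same direction. Whole limb values do not show whether both sets were expressed in the same cells.

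The promoter of Cyp26a1 is shown because the response of this gene to retinoic acid is known to run through elements near its start. Retinoic acid receptors bind paired 6-base units in the same orientation. The windows searched ran from 250 bases before to 50 after each RefSeq start (GRCm38.p6, the mm10 assembly) and were available for 7 of the 10 genes, in 10 windows. The unit searched was AGGTCA and its variants with AG or GG before the letters GTCA or TTCA, on either strand. A DR5 match was a pair of units with 5 bases between them, so that its units were also counted singly. The 120 bases before the RefSeq start are printed on the strand of the gene, with the units of the DR5 match in capitals. The start in the Ensembl annotation lies a few bases inside its right end, past the match.
Cyp26a1, chr19:37697688-37697807, plus strand: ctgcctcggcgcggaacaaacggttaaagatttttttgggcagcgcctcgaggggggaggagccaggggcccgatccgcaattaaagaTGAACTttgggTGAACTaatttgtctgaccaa

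Cyp26a1 held 1 DR5 match, on the opposite strand, from base -32 to base -16 before the start (chromosome 19, 37697776 to 37697792). A DR5 match occurred in 32 of 32851 RefSeq windows of the same length (0.0974%). None of the other 9 windows of these genes (Dhrs3, Cyp26b1, Crabp1, Aldh1a2, Aldh1a1 and Cyp26c1) held a DR5 match or a pair of units with 1 or 2 bases between them, which occurred in 0.222% and 0.268% of all windows. A single unit was found elsewhere only in 1 Aldh1a1 window, against 43.7% of all windows. These matches describe letters in short windows and show nothing about binding. Windows for Aldh1a3, Rdh10 and Crabp2 were not analysed here.

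The binding proteins had the highest levels in TPM. Crabp2 (ENSMUSG00000004885.5, chromosome 3, 87948666 to 87953376), whose protein delivers retinoic acid to the nuclear receptors, was at 505.54 TPM in replicate 1 and 562.18 in replicate 2 (534 ± 40.1, SD, n = 2). It ranked 246 of 43346 genes by mean TPM. Crabp1 (ENSMUSG00000032291.8, chromosome 9, 54764748 to 54773110), whose protein holds retinoic acid in the cytosol and is linked to its breakdown, was at 294.78 and 254.59 TPM (275 ± 28.4) and ranked 560. The counts were 7863 and 8804 for Crabp2, and 3882 and 3376 for Crabp1. Crabp2 was 1.71-fold above Crabp1 in replicate 1 (1.65 to 1.78) and 2.21-fold in replicate 2 (2.12 to 2.30). The intervals of the libraries did not overlap, so the ratio differed between the pools by more than counting error, and its log2 mean of 0.96 exceeded its SD of 0.26. Both transcripts are short (929.3 and 802 nt), and without length scaling the ratio was 2.03 and 2.61.

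**Figure D2:**
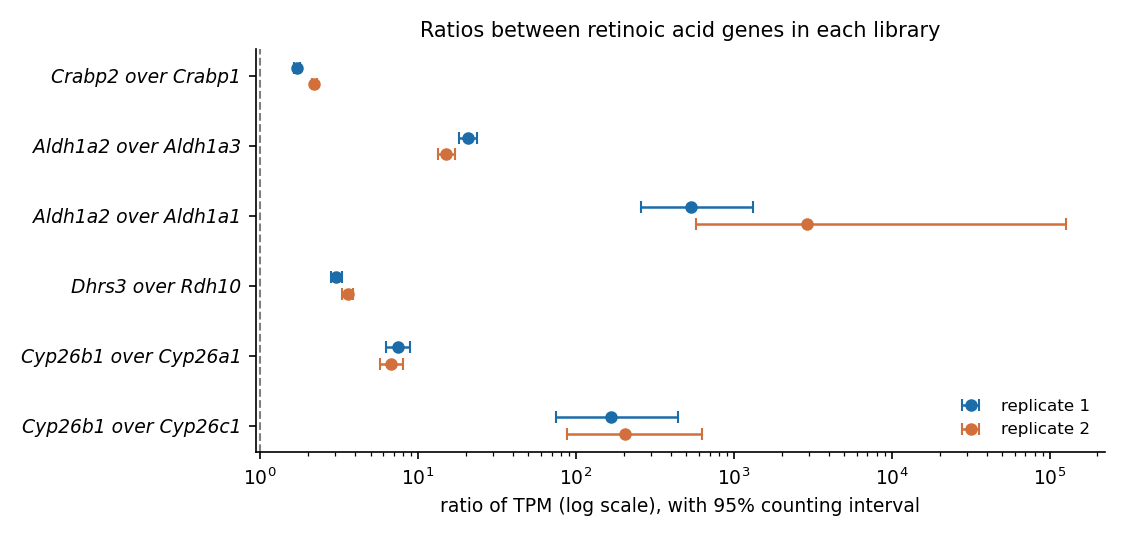
Ratio of TPM between named pairs in each library on a log axis, with bars for the 95% exact counting interval and a dashed line at a ratio of 1. All 12 values lie above 1, and the bars are widest for Aldh1a1 and Cyp26c1, which had 1 to 7 counts.

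Between the named pairs the direction was the same in both libraries, and the smallest p that an exact sign-flip test of 2 values can give is 0.5, so no test of these ratios is given. Expected counts of all 10 genes were whole in both libraries to within 0.005, as were those of 73.0% of detected protein-coding genes, and whole values show no sign of reads divided with other genes. In the annotation used here, Aldh1a1 is overlapped on the opposite strand by C730002L08Rik and Gm6684, and Aldh1a2 by the pseudogene Gm48124. The only listed Aldh1a1 transcript starts at base 20601961, past the ends of C730002L08Rik (20552330) and Gm6684 (20586757). Gm6684 had 0 counts in each library. Nothing given here states whether the counting used strand, so reads of the Gm48124 overlap cannot be told apart from those of Aldh1a2.

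Transcript tables divided 5 of the 10 genes among several listed transcripts, and the other 5 had a single one. Dhrs3 was the most divided. Its nonsense-mediated decay transcript Dhrs3-201 held 29.16% of the gene in replicate 1 and 29.77% in replicate 2. The coding transcript Dhrs3-206 held 27.72% and 29.58%, and the coding transcript Dhrs3-207 held 31.51% and 24.66%. Per length, Dhrs3-207 thus led in replicate 1 and Dhrs3-201 in replicate 2. By counts not divided by length, the longer Dhrs3-206 led in both libraries, with 39.2% and 42.1% of the gene, against 31.0% and 31.8% for Dhrs3-201 and 24.9% and 19.6% for Dhrs3-207. Dhrs3-205, a coding transcript, had 4.58% and 10.23%. Transcripts annotated as protein-coding held 64.6% and 65.4% of Dhrs3 in all, so the total was steadier than its division.

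For Aldh1a3, the full-length coding transcript Aldh1a3-201 (1536 nt of coding sequence) held 70.47% and 66.93%. The remainder, 29.53% and 33.07%, was assigned to Aldh1a3-203, which is annotated with 528 nt of coding sequence. Those shares rested on 37.71 and 50.16 expected counts for Aldh1a3-203. Rdh10-201 held 91.31% and 93.89%, and the retained intron transcript Rdh10-202 the remainder. Cyp26b1-202 held 97.17% and 100%, Crabp2-201 held 99.38% and 99.36%, and Aldh1a2, Crabp1 and Cyp26a1 had 1 listed transcript each. The division of a gene among transcripts is an estimate, and it was not tested between the libraries.

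**Figure D3:**
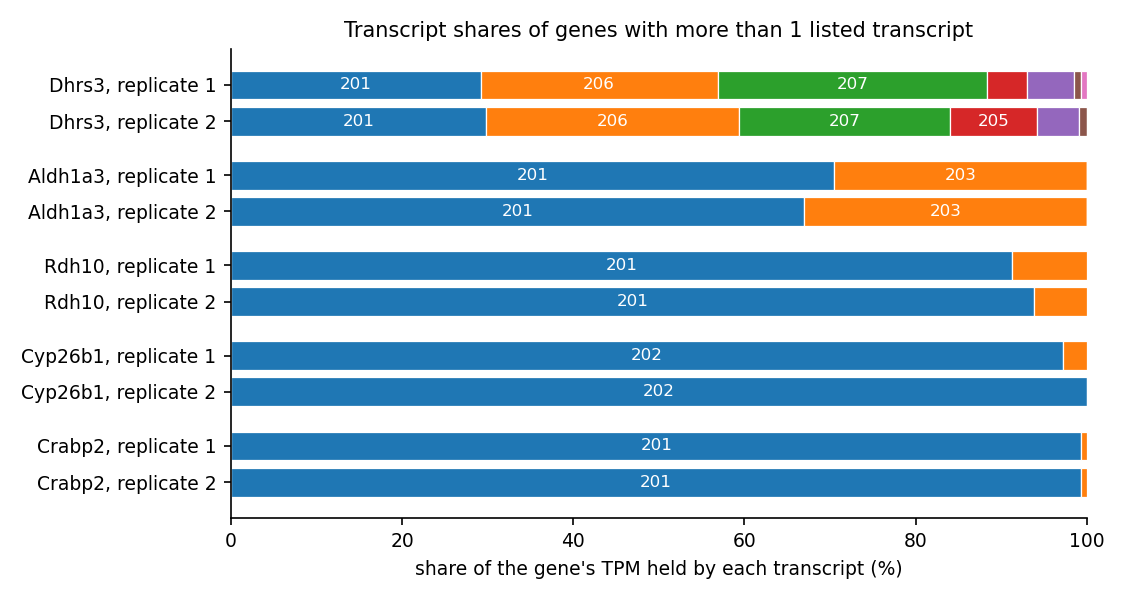
Share of each gene's TPM held by each listed transcript, in percent, with 1 bar per gene and library and transcript numbers printed on segments of at least 10%. Dhrs3 is split among several transcripts, with Dhrs3-207 at 31.51% and 24.66%, and Crabp2 is nearly all Crabp2-201.

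Other genes of retinoid handling were taken from a list of 30, of which 17 were detected, where 59.2% of protein-coding genes were. The median over all 30, detected or not, was 2.23 TPM, against 23.7 TPM over the 10 genes. The highest was Fabp5, a fatty acid binding protein that can also carry retinoic acid, at 247.8 and 256.24 TPM. Crabp2 was 2.04-fold and 2.19-fold above it. Next were Adh5, an alcohol dehydrogenase active mainly on formaldehyde adducts (175.15 and 169.07 TPM), the acyltransferase gene Dgat1 (57.57 and 59.93 TPM) and the short-chain dehydrogenase gene Dhrs4 (49.04 and 52.81 TPM). Stra6, the receptor that takes up retinol, was at 40.2 and 31.55 TPM. The gene of the retinol carrier in blood, Rbp4, was low (3.67 and 5.2 TPM). Lrat, which stores retinol as esters, was at 0.11 and 0.1 TPM, and Bco1, which cleaves beta-carotene to retinaldehyde, at 0.33 and 0.12 TPM. Dhrs9, Rdh16 and Adh4 were listed at 0 in both libraries.

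All 6 nuclear receptor genes were detected, from Rarg at 112.78 and 114.4 TPM down to Rarb at 9.24 and 8.92 TPM. Summed Crabp genes were 4.98 times the summed Rara, Rarb and Rarg in TPM in replicate 1 and 5.01 times in replicate 2. Much of that ratio came from dividing by length. In replicate 1 the Crabp2 and Crabp1 lengths were 929.3 and 802 nt, against 2666.29 to 3034 nt for the Rar genes. The counts there were 7863 for Crabp2 and 3882 for Crabp1, against 1863 for Rara, 508 for Rarb and 5442 for Rarg.

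**Figure D4:**
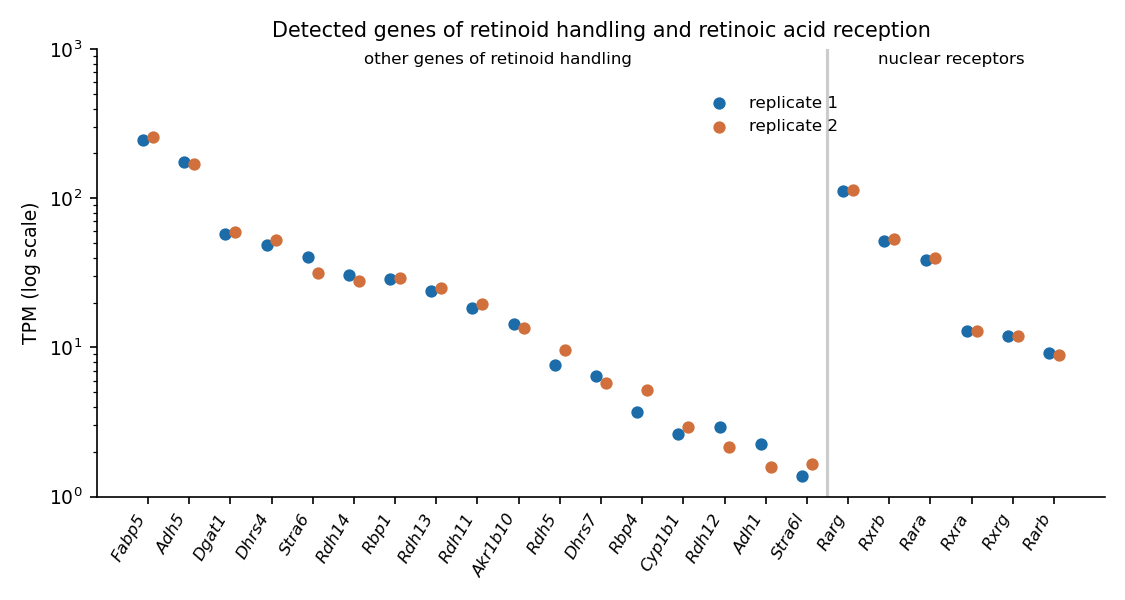
Level in TPM on a log axis of the 17 detected genes of retinoid handling outside the 10 and of the 6 nuclear receptor genes, with 1 point per library. Fabp5 and Adh5 lead the first group and Rarg the second, and the points of most genes nearly coincide.

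Between the pools, Crabp2 was higher in replicate 2 and Aldh1a2 and Crabp1 were higher in replicate 1, by less than 1.2-fold each. Crabp2 was 1.10 times its replicate 1 level in replicate 2 (95% exact interval 1.07 to 1.14), Aldh1a2 was 0.855 times (0.817 to 0.894), and Crabp1 was 0.857 times (0.818 to 0.898). Their Benjamini-Hochberg adjusted p from an exact binomial test over 18580 genes was 1.00e-08 for Crabp2, 4.40e-10 for Aldh1a2 and 3.00e-09 for Crabp1. That test covers counting error only and compares 2 libraries, not conditions. Of the 9 genes with enough counts to test, 1 passed as higher in replicate 2 and 2 as higher in replicate 1, where 7.1% and 9.3% of all tested genes did. The 3 that passed were also the 3 with the most counts. None of the 9 was called when a fold of at least 2 was required, which 1.85% of all tested genes met. In the exact binomial test 4 of the 9 had an unadjusted p under 0.05. The share of all tested genes under that limit was not counted, so the 4 are not read as a result about these genes. With the spread between the libraries included, edgeR's exact test called 0 of the 9 and 1.3% of all genes, with an adjusted p of 0.983 for Aldh1a2 and 1 for Crabp2 and Crabp1. That spread was estimated from the same 2 libraries and so takes in the difference tested. The edgeR result therefore cannot show that these genes do not differ.

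The remaining genes differed little. Dhrs3 was 1.08 times its replicate 1 level in replicate 2 (1.00 to 1.16), Cyp26b1 1.03 times (0.978 to 1.09) and Rdh10 0.929 times (0.849 to 1.02). Cyp26a1 (1.13 times, 0.893 to 1.44) and Aldh1a3 (1.14 times, 0.962 to 1.36) had wider intervals. Cyp26c1 had an interval of 0.198 to 3.23, so a difference was not detectable at this depth, and Aldh1a1 was not tested, with 8 counts in all.

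Among the 22 tested genes of the retinoid handling list, 1 passed with no fold limit. Stra6, which retinoic acid is known to induce, was lower in replicate 2 (log2 ratio -0.31, adjusted p = 1.61e-08 by the exact binomial test, 0.657 by edgeR's exact test). None of the 22 was called at a fold of at least 2 or by edgeR's exact test, and 4 had an unadjusted p under 0.05. None of the 6 receptor genes passed, none was called by edgeR's exact test, and 0 had an unadjusted p under 0.05. For these unadjusted counts, too, the share over all tested genes was not counted. In a list of 12 genes known to respond to retinoic acid, which shares Dhrs3, Cyp26a1, Crabp2 and Stra6 with the lists above, mean levels ran from 0.015 to 533.86 TPM and 11 were tested, with Crabp2 passing as higher in replicate 2 and Stra6 as higher in replicate 1. The median log2 difference was 0.04 for the 9 genes, 0.02 for the handling list, -0.03 for the receptors and -0.03 for the response list, beside -0.01 over all tested genes.

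Markers of other tissues and of limb type differed between the same pools. Tbx5, a forelimb gene, was at 35.17 and 24.11 TPM and the hindlimb gene Pitx1 at 142.42 and 172.9 TPM. Of the 6 cartilage markers, 5 were higher in replicate 1 with no fold limit, Col2a1 among them (452.67 and 368.92 TPM). Of these, 2 were also called at a fold of at least 2, Acan and Matn1 (25.26 and 10.2 TPM). Of the 6 neuron markers, 5 were higher in replicate 2 with no fold limit, Nefl among them (4.19 and 10.53 TPM). At a fold of at least 2, 3 were called: Nefl, Prph (0.16 and 3.94 TPM) and Elavl3. From the motor neuron list, Isl1 was called as well, higher in replicate 2 (log2 ratio 1.02), and Mnx1, the other tested gene of that list, did not pass. Of 6 genes listed for the tissue between the digits, Mmp11 was at 88.38 and 81.68 TPM, Bmp7 at 26.18 and 26.37 TPM and Msx2 at 52.87 and 60.69 TPM, with summed levels of 213.35 and 214.46 TPM, and Msx2 was the 1 gene of the list that passed with no fold limit. The part of these shifts in the differences of Aldh1a2, Crabp1 and Crabp2 was not tested.

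**Figure D5:**
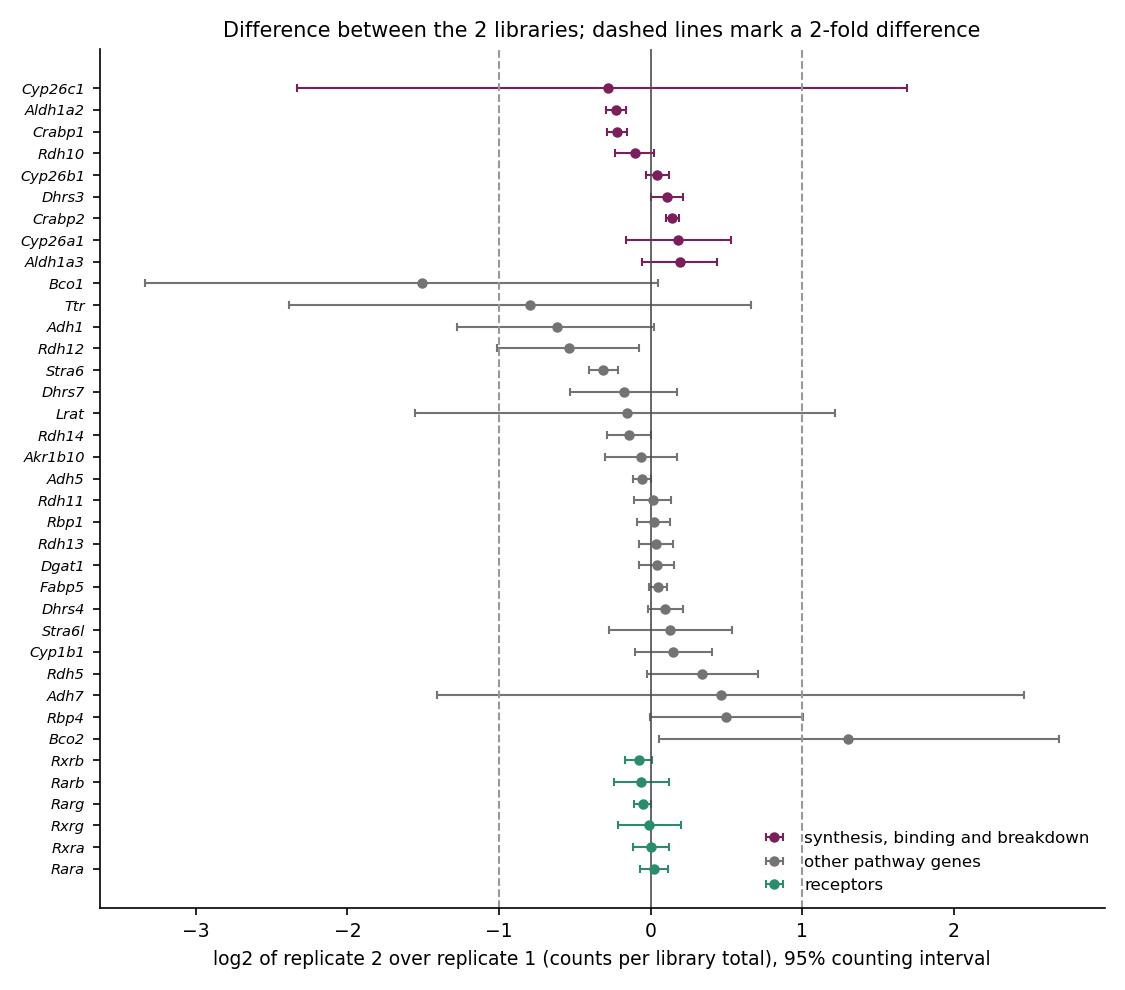
Log2 ratio of replicate 2 over replicate 1 for the 9 tested genes of synthesis, binding and breakdown, 22 other genes of retinoid handling and 6 receptors, with bars for the 95% exact counting interval and dashed lines at a 2-fold difference. Aldh1a2 and Crabp1 lie left of the zero line and Crabp2 right of it, all well inside the dashed lines.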

How the data were processed

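Total RNA from 2 pools of mouse limb was sequenced, and the gene and transcript tables were used as deposited. The deposited expected counts are estimated reads per gene or transcript that need not be whole, per the file headers. TPM was taken from the authors' tables, where the values of all rows, spike-ins included, add to the same sum in each library. Each transcript's share of its gene in percent is also a deposited value. Per the labels and the deposited notes, coordinates are mm10 and genes GENCODE M4. For the aligner, quantifier and strand setting, nothing was given in the sources used here.

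Rows were matched to GENCODE M21 symbols and positions by identifier without version (42462 of 43346 Ensembl genes). Spike-ins (3.28% and 2.30% of counts) and numeric identifiers were left out of library totals. Log2 ratios used TPM plus 0.1. Rounded counts were compared between the libraries by an exact conditional binomial test, two-sided, over genes with at least 10 counts in all, with Benjamini-Hochberg adjustment. Genes were called where the adjusted p was below 0.05 and the libraries differed at least 2-fold. A single group leaves no contrast for the quasi-likelihood test of edgeR. Its exact test used a common dispersion from both libraries (coefficient of variation 0.0698), so it is not independent of the difference. In 1 comparison over 16488 genes, counts differed by more than sampling noise (chi-square 6.61 per degree of freedom), so the libraries were counted as 2 samples. The test was tried on simulated counts with known changes and counting error only, a smaller spread than that between these libraries. Intervals cover counting error only, as no molecular identifiers are recorded. Promoter windows came from RefSeq.

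The 10 genes and the lists were chosen with earlier results of these data known. The text names all 10, the 5 highest genes of the handling list with Rbp4, Lrat and Bco1, transcripts of at least 10%, and, chosen after their values were seen, the 3 handling genes listed at 0 and examples from the marker lists. Alternatives changed the pseudocount, length scaling, estimate, the rows over which TPM is scaled, library scaling and count minimum. Tools were R 4.3.3, edgeR 4.0.16, DESeq2 1.42.0 (size factors only), Python 3.11.15, scipy 1.17.1, numpy 2.4.6, pandas 2.3.3 and matplotlib 3.10.9.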

Additional observations from a re-analysis of the deposited data

How the results depend on the processing

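No ratio between the genes changed direction under any alternative run. Without length scaling the log2 ratio was 3.80 for Aldh1a2 over Aldh1a3, 0.63 for Dhrs3 over Rdh10, 4.26 for Cyp26b1 over Cyp26a1, 8.37 for Cyp26b1 over Cyp26c1 and 0.48 for summed Aldh1a over summed Cyp26 genes, as transcript lengths differ. With a pseudocount of 0.01 it was 10.03 for Aldh1a2 over Aldh1a1 and 7.45 for Cyp26b1 over Cyp26c1. With a pseudocount of 1 these were 6.42 and 4.82, and Cyp26b1 over Cyp26a1 was 2.58. With posterior mean TPM Cyp26b1 over Cyp26c1 was 6.68. With TPM rescaled over Ensembl genes alone, the mean levels of all 10 genes rose. Rdh10 went from 15.26 to 16.3, Dhrs3 from 50.44 to 54.0 and Cyp26b1 from 32.2 to 34.4. Spike-ins are part of the deposited TPM and took 3.28% and 2.30% of counts, so TPM values of the pools also carry that difference. Genes called between the libraries numbered 343, but 75 with at least 100 counts and 3048 with no fold limit, and none of the 9 tested genes of synthesis, binding and breakdown was called at a fold of at least 2 under any scaling or count minimum run. The full-length share of Aldh1a3 was 68.7%, 61.7% by posterior means and 84.0% by counts. No paired analysis was possible because there was 1 group. Depth limits Aldh1a1 and Cyp26c1, with 1 to 7 counts a library.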

Other observations

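The 10 RefSeq promoter windows of the 7 matched genes differed in base composition. The Aldh1a2 window had 78.0% G and C with a CpG count 1.11 times that expected from its bases, while the Aldh1a1 windows had 43.3% and 47.0% with 0.213 and 0.0604 times the expected CpG. The windows of Cyp26a1 and Cyp26b1 both had 62.3% G and C, but 0.894 and 0.314 times the expected CpG. Over all 32851 windows the medians were 52.7% and 0.384.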
